A study of Mus musculus with 8 samples.

Results

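The genes described here are 6 transcription regulators, read in whole tissue that holds olfactory sensory neurons (OSNs) among other cells. These are the paralogs Emx1 and Emx2, the LIM homeodomain factors Lhx2 and Lhx9, their cofactor Ldb1, and the distal-less factor Dlx5. Which cell types gave the signal of each gene was not tested. The 6 genes were taken as the rows of the expression table that carry exactly 1 gene symbol among these names. Each of the 6 genes had 1 such row, out of 35557 rows in all, of which 23410 carry a gene symbol and were tested. Whole olfactory mucosa of mice at postnatal day 1 was profiled, with 1 array per sample and values on a log2 scale. The 4 knockout samples had the genotype 123Cre:Emx2(fl/fl). The 4 littermate control samples held 2 genotypes, 123Cre:Emx2(fl/+) in control replicates 1 and 4 and Emx2(fl/fl) without Cre in control replicates 2 and 3. Every sample therefore carried at least 1 floxed Emx2 allele, and 6 of 8 carried the Cre transgene. The 123 promoter turns Cre on in immature OSNs and, per the study, recombines only a part of them, so that the other OSNs and all other cell types of a knockout keep their Emx2 alleles. In whole tissue, fewer cells of a type and less RNA per cell cannot be told apart.

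Emx1 and Emx2 are vertebrate relatives of the fly empty spiracles gene, best known for patterning the developing cortex, and both bind AT-rich DNA through a homeodomain. LIM homeodomain factors bind similar sites and recruit Ldb1 through their LIM domains, and Ldb1 can join factors on separate enhancers and promoters. Homeodomain sites recur in the promoters and enhancers of odorant receptor genes, often near binding sites of the Olf/Ebf (O/E) family, and Lhx2 is required for the maturation of OSNs. The comparison addresses whether mRNA of the paralog or of the partner factors was more abundant where Emx2 mRNA was lower.

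The promoters of the Emx paralogs and of Lhx9, the genes whose levels bear most directly on that question, are shown because such factors can act on one another's genes. Each sequence is the 250 bases just upstream of a RefSeq start site (build GRCm38.p6, read 5′ to 3′ on the gene's own strand), and capitals mark TAAT, the core homeodomain motif, or ATTA, the same motif on the opposite strand. The windows are chr19:59458440-59458689 on the + strand for Emx2, chr6:85187681-85187930 on the + strand for Emx1, and chr1:138842445-138842694 on the - strand for Lhx9.
Emx2: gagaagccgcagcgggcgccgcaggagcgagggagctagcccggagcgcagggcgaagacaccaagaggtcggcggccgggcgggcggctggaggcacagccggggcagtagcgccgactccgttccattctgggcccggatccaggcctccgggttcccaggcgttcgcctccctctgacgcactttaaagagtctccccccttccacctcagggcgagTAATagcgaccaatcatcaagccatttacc
Emx1: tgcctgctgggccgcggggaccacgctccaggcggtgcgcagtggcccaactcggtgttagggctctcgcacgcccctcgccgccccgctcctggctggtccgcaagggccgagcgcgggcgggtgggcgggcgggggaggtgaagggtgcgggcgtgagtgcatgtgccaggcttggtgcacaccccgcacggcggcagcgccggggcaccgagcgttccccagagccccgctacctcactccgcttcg
Lhx9: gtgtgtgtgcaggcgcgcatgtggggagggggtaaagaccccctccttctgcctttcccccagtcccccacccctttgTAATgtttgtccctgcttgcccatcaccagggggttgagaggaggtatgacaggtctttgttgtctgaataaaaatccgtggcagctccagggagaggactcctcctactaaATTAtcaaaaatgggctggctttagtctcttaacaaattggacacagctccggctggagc
The Emx2 window held 1 match, the Emx1 window 0 and the Lhx9 window 1 on each strand. Of all 32851 RefSeq windows of this length, 54.9% held TAAT or ATTA, so that presence of the motif is common. The Emx2 and Emx1 windows were 67.2% and 75.6% G and C, against a median of 52.4% over all windows. In all, 5 of the 6 genes matched the promoter table, with 8 start sites. Both Lhx2 windows and 2 of the 3 Ldb1 windows held no match.

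Emx2 itself came first, as the check of the labels. The controls read 10.80, 10.86, 11.00 and 10.72 on the log2 scale (replicates 1 to 4), and the knockouts read 9.80, 9.86, 10.01 and 9.93. Every knockout lay below every control, and the spread within a group was small beside the gap between groups. Emx2 mRNA fell by 0.94 on the log2 scale (SE 0.082, 95% interval -1.13 to -0.76), from 10.84 ± 0.115 to 9.90 ± 0.089 (SD, n = 4 each), with an adjusted p of 0.0014 from limma. The knockout signal was thus 52.0% of control (45.8 to 59.2%). An exact permutation test (two-sided, all 70 ways to divide the samples) gave p = 0.0286, the smallest possible here. Of the 6 genes, Emx2 alone passed the test at an adjusted p under 0.05, so that 1 was lower and 0 were higher, where 0.359% of all rows tested passed it (0.35% lower and 0.00854% higher). Emx2 was also the 1 gene of the 6 whose groups did not overlap, which held for 4.52% of all rows (2.54% lower and 1.98% higher). A row combines probes from all exons of a gene, so transcripts that lost only some exons still add to the signal.

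The controls differ in how many Emx2 alleles Cre can delete. The samples without Cre read 10.86 and 11.00, the samples with Cre and 1 floxed allele 10.80 and 10.72, and the knockouts 10.01 or less. The 3 genotypes were thus in order without overlap, as in 0.598% of all rows in the falling direction. Emx2 mRNA of the knockout fell by 1.03 against Emx2(fl/fl) (adjusted p = 0.0268, 3-genotype limma fit, passed by 0.137% of all rows) and fell by 0.86 against 123Cre:Emx2(fl/+) (adjusted p = 0.0159, passed by 0.179%). The step between the control genotypes was -0.17 (95% interval -0.42 to 0.08, adjusted p = 0.997), so a difference between them was not detectable with 2 samples each. Read from Xist and Y-linked rows, both 123Cre:Emx2(fl/+) controls were female and both Emx2(fl/fl) controls male, and 1 of 4 knockouts was female. Sex and genotype cannot be told apart among the controls.

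**Figure D1:**
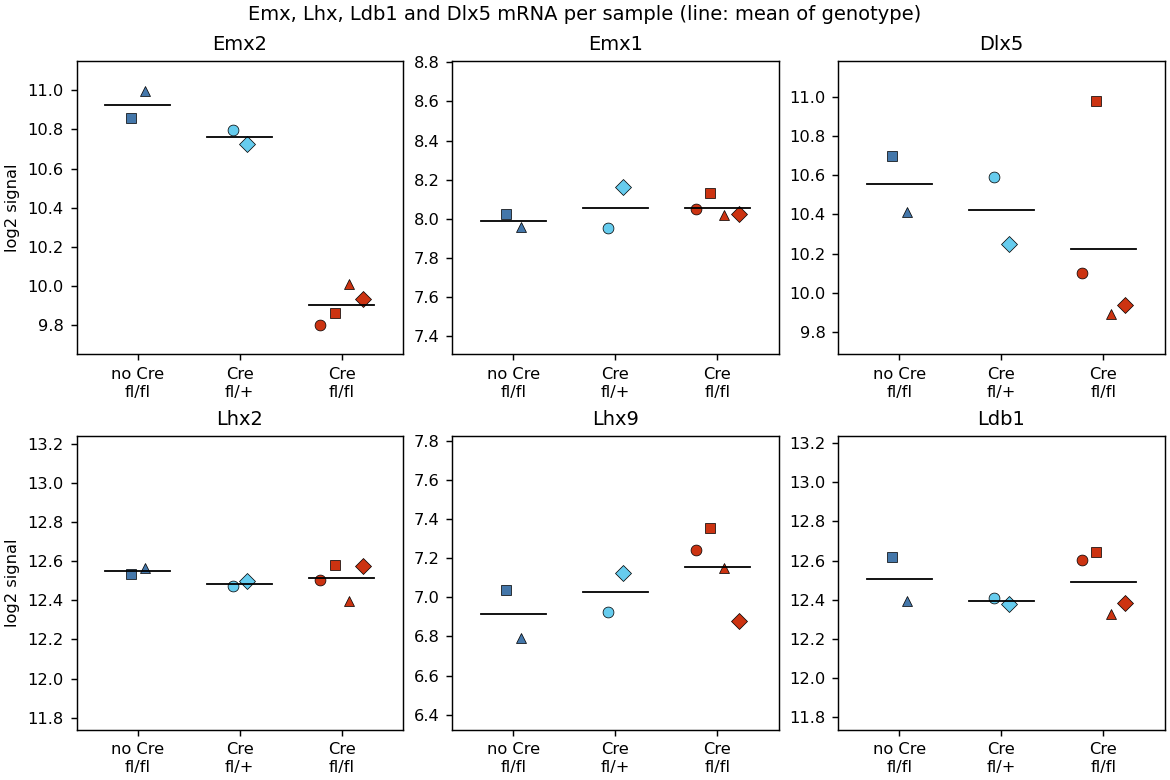
Log2 signal (vertical axis) of the 6 genes in each of the 8 samples, by genotype (horizontal axis: Emx2(fl/fl) without Cre, 123Cre:Emx2(fl/+), 123Cre:Emx2(fl/fl)). Circles, squares, triangles and diamonds are replicates 1 to 4 of the control or knockout group, lines are genotype means, and every panel spans the same range of log2 units around its own level. Emx2 separates the groups, with knockouts at 9.80 to 10.01 and controls at 10.72 to 11.00, while the groups overlap for the other genes.

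Emx1, the paralog with the most similar homeodomain, did not pass the test. The controls read 7.95, 8.03, 7.96 and 8.16, and the knockouts 8.05, 8.13, 8.02 and 8.02. All 4 knockouts lay within the range of the controls. The difference was 0.03 (SE 0.072, 95% interval -0.13 to 0.19, adjusted p = 1.0), between means of 8.02 ± 0.098 and 8.06 ± 0.052 (SD, n = 4 each), and it was -0.00080 when only the 123Cre:Emx2(fl/+) controls were used. On a linear scale the interval runs from 0.913-fold to 1.14-fold, so a rise of Emx1 signal above 1.14-fold lies outside it. That bound holds for the deposited scaling only. With arrays centred on mature OSN markers, the Emx1 difference was 0.17, with a 95% interval of -0.04 to 0.37 on the log2 scale. The table holds no detection calls, and 15 rows for genes of organs that were not sampled (genes of sperm, pancreas or kidney, for example) had means between 5.45 and 8.06. The Emx1 and Lhx9 rows lie inside that range, so how much of their signal was Emx1 or Lhx9 mRNA is unknown. Emx1 lies inside it only through 1 row, Prm3 (7.95 in controls and 8.16 in knockouts), and above all the others, whose highest include Cela2a (7.50 and 7.67). Levels of different rows come from different probes and are not ranked here.

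Lhx2, the LIM homeodomain factor required for OSN maturation, was at nearly the same level in both groups. Its controls read 12.47, 12.53, 12.56 and 12.50, and its knockouts 12.50, 12.58, 12.40 and 12.57. The highest and the lowest of the 8 values were both knockouts. The difference was -0.0040 (SE 0.067, 95% interval -0.16 to 0.15, adjusted p = 1.0), with a linear interval of 0.897-fold to 1.11-fold. Its sign turned under quantile normalization, median centring and centring on mature OSN markers.

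Lhx9, the closest relative of Lhx2, showed the largest positive difference of the 6 genes, and it did not pass the test. The controls read 6.92, 7.04, 6.79 and 7.13, and the knockouts 7.24, 7.36, 7.15 and 6.88. Knockout replicates 1, 2 and 3 lay above every control, and knockout replicate 4 lay below 3 of the 4 controls. The difference was 0.19 (SE 0.117, 95% interval -0.08 to 0.45, adjusted p = 0.932), from 6.97 ± 0.145 to 7.16 ± 0.204 (SD, n = 4 each), and the linear interval runs from 0.946-fold to 1.37-fold. Without knockout replicate 4 it was 0.28, with a 95% interval of 0.04 to 0.52 that lay above 0. It was still short of the threshold there (adjusted p = 0.78), with adjusted p between 0.723 and 1.0 over the samples left out. The 15 rows for genes of organs that were not sampled lay slightly higher in the knockouts too, with 14 of 15 above 0. Their median difference was 0.10, and 2 rows were higher without overlap. Of all 23410 rows tested, 12077 lay above 0, with a median of 0.0041, and 1.98% were higher without overlap. Mean log2 signal of the 15 rows was 6.53 to 6.66 in controls and 6.62 to 6.72 in knockouts. The part of such a shift in the Lhx9 value was not tested.

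**Figure D2:**
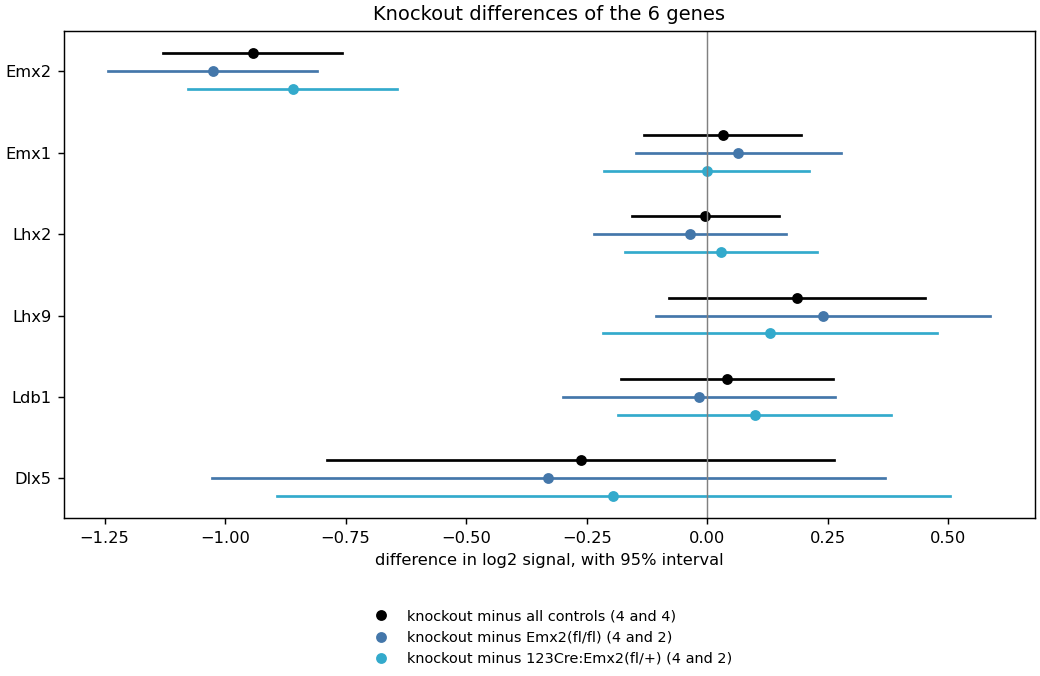
Difference in log2 signal (horizontal axis) of the 6 genes (vertical axis) for knockout minus all controls and for knockout minus each control genotype, with points for limma estimates and lines for 95% intervals. The Emx2 intervals lie below 0 in each comparison (-1.13 to -0.76 against all controls), and the intervals of the other genes include 0 in each.

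Of the other LIM homeodomain genes, which specify neuron types in the spinal cord and brain, 9 of 10 listed had a row, and 0 passed the test in either direction at an adjusted p under 0.05 or at an unadjusted p under 0.05, against 6.1% of all rows at the latter (3.06% lower and 3.04% higher). Their median difference was 0.05, where the median of all rows was 0.0041. All of their rows but Isl1 lay inside the range of the 15 rows for genes of organs that were not sampled, whose median difference was 0.10. Isl1, a factor of motor and sensory neurons, had the largest difference. Its controls read 8.48 to 8.65, with 8.35 in knockout replicate 2 and 8.75 to 8.96 in the other knockouts, a difference of 0.21 (adjusted p = 0.932). Isl2 was at -0.12, Lhx5 at 0.12, Lhx1 at -0.11, Lhx3 at 0.08 and Lhx8 at 0.07.

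Ldb1, the cofactor through which LIM factors form complexes, read 12.41, 12.62, 12.40 and 12.38 in controls and 12.60, 12.64, 12.33 and 12.38 in knockouts. Control replicate 2 and knockout replicates 1 and 2 were high, the other 5 samples were low, and the groups overlapped. The difference was 0.04 (SE 0.097, 95% interval -0.18 to 0.26, adjusted p = 1.0), and it was -0.011 without knockout replicate 2. Of 9 partners of Ldb1 listed, 9 had a row and 0 passed the test, also at an unadjusted p under 0.05, with a median difference of -0.02. Among them, the LIM-only factors, which bind Ldb1 without binding DNA, had the largest differences. Lmo3 read 7.28, 8.41, 7.47 and 6.96 in controls and 7.91, 8.14, 7.83 and 8.19 in knockouts. Control replicate 2 had the highest Lmo3 value of all samples and the other controls the lowest, and the difference of 0.49 did not pass (adjusted p = 0.896). Lmo4 was at -0.13, Lmo1 at 0.11 and Lmo2 at -0.07, and the single-stranded DNA-binding proteins that stabilise Ldb1, Ssbp4 and Ssbp2, were at 0.06 and -0.04.

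Dlx5, a homeodomain factor of the olfactory placode that is also made in developing bone, had the widest spread of the 6 genes. The controls read 10.59, 10.70, 10.41 and 10.25, and the knockouts 10.10, 10.98, 9.89 and 9.93. Knockout replicate 2 had the highest value of all 8 samples, and the other 3 knockouts lay below every control. The difference was -0.26 (SE 0.232, 95% interval -0.79 to 0.26, adjusted p = 1.0), from 10.49 ± 0.197 to 10.23 ± 0.510 (SD, n = 4 each). Without knockout replicate 2 it was -0.51, and it did not pass the test there either (adjusted p = 0.154). That array stood apart from the rest over all rows, with a mean correlation of 0.979 with the other arrays against 0.988 to 0.991 for them.

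Of 7 other Dlx entries listed, 6 had a row, and 0 passed the adjusted test. At an unadjusted p under 0.05, 1 was lower and 0 were higher, against 3.06% and 3.04% of all rows. The median difference was -0.22, where the median of all rows was 0.0041. Dlx6, the genomic neighbour of Dlx5, read 9.66, 9.54, 9.42 and 9.62 in controls and 8.87, 9.44, 9.18 and 9.28 in knockouts. Knockout replicate 2 was again the highest knockout, the groups overlapped only through it and control replicate 3, and the difference was -0.36 (SE 0.122, adjusted p = 0.687). Dlx1, which marks interneurons of the olfactory bulb, read 9.12 and 8.83 in the Emx2(fl/fl) controls and 7.09 to 7.85 in every sample with Cre, a knockout difference of -0.76 that did not pass (adjusted p = 0.836). Dlx2 followed the same pattern, with 8.22 and 7.79 in the Emx2(fl/fl) controls and 6.94 to 7.49 in the other samples.

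Markers of other tissues were read beside these genes. The mean log2 signal of 11 olfactory bulb and brain markers was 8.37 and 8.27 in the Emx2(fl/fl) controls, the samples high in Dlx1 and Dlx2, and 7.87 to 8.16 in the other samples. Of the single markers, Tbr1, Eomes and Gad1 were highest in both Emx2(fl/fl) controls, and the others were not. Gad2 was highest in knockout replicates 4 and 3 (9.50 and 9.40), against 9.12 and 9.08 in the Emx2(fl/fl) controls. The mean of 10 bone and cartilage markers ran from 9.81 to 10.24 in controls and from 9.97 to 10.19 in knockouts. Genes of that list did not move together, so its mean does not show an even bone content. Ibsp read 12.80 in control replicate 1, 12.47 and 12.35 in knockout replicates 3 and 4, and 10.31 to 11.64 elsewhere. It was 10.57 in knockout replicate 2, where Dlx5 was highest. Matn1 read 7.74 in control replicate 1 and knockout replicate 3, 7.78 in knockout replicate 4 and 7.81 to 9.18 elsewhere. Of the bulb and brain markers, 1 of 11 was lower at an unadjusted p under 0.05, and of the bone and cartilage markers 0 of 10 moved in either direction. The shares of all rows at that threshold were 3.06% lower and 3.04% higher. The mean of 8 progenitor and basal cell markers was 10.31 in knockout replicate 2 and 9.95 to 10.21 elsewhere. Krt5, Krt14, Trp63 and Neurog1 were highest in that sample, Neurod1 and Top2a were lowest in it, and Kit and Mki67 were neither. The part of bulb tissue in the Dlx1 and Dlx2 values, and of bone or basal cells in the Dlx5 values, was not tested.

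**Figure D3:**
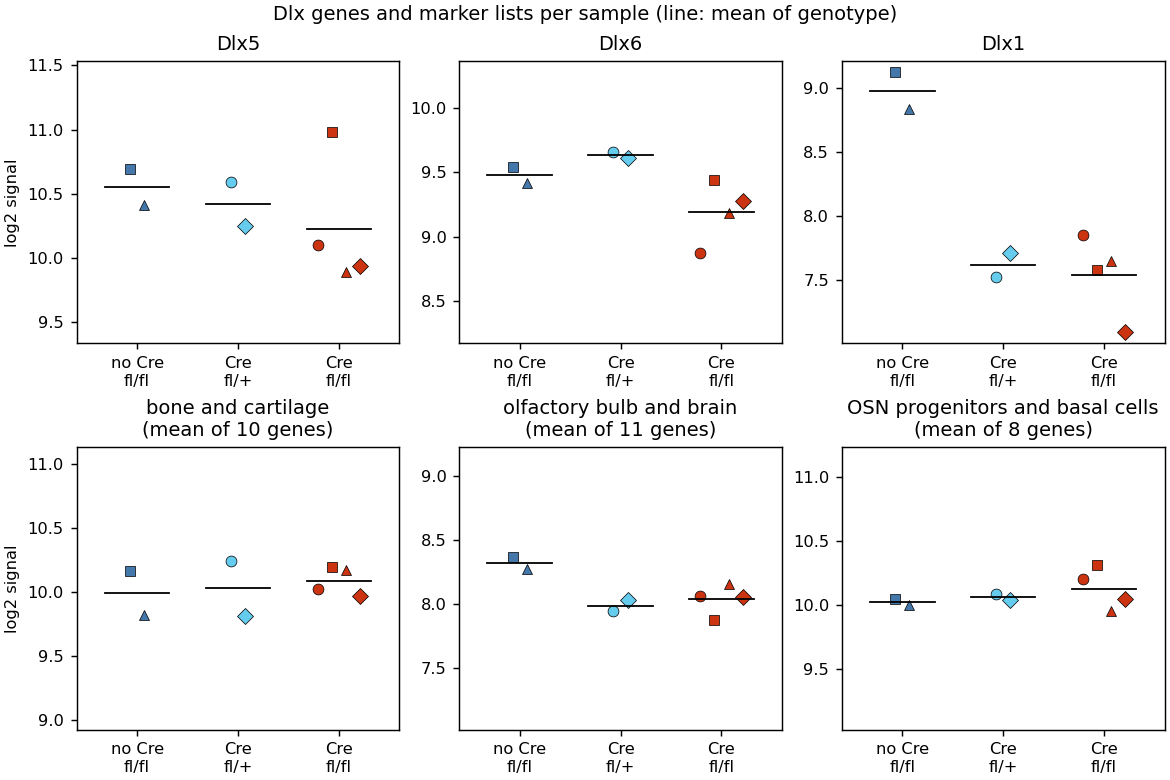
Log2 signal (vertical axis) of Dlx5, Dlx6 and Dlx1 (upper panels) and mean log2 signal of 3 marker lists (lower panels) in each sample, by genotype (horizontal axis). Symbols are replicates 1 to 4, lines are genotype means, and all panels span the same range. Dlx5 is highest in knockout replicate 2 (10.98). Dlx1 (9.12 and 8.83) and the mean of the bulb and brain markers (8.37 and 8.27) are highest in both Emx2(fl/fl) controls.

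Homeodomain factors outside these families gave no calls. Of 36 further homeodomain factors of the nose, 28 had a row, and 0 passed the adjusted test or had an unadjusted p under 0.05, with a median of 0.02 and a range of -0.15 to 0.26. Otx1, a head patterning factor, was at 0.26 (adjusted p = 0.846), Msx1 and Zfhx4 at 0.18, Pitx1 and Barx2 at 0.15, and Meis2 at -0.15. Of 14 genes that act with Emx2 in patterning the forebrain, 13 had a row and 0 passed at either threshold. The largest difference in that list was -0.21 for Nr2f2, an orphan nuclear receptor, and Sox2, a progenitor factor, was at -0.15, Wnt1 at 0.12 and Gli3 at 0.11. The 4 O/E factors, whose sites accompany homeodomain sites at odorant receptor genes, were at -0.13 (Ebf3), -0.11 (Ebf1), -0.08 (Ebf2) and 0.0067 (Ebf4), and 0 of 4 passed at either threshold.

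The signals of the OSNs themselves bear on how these values are read, since Emx2 was deleted only in OSNs. Omp, the marker of mature OSNs, was at -0.06 (adjusted p = 1.0), and Gap43, a growth protein of immature OSNs, was at -0.23 (unadjusted p = 0.0095, adjusted p = 0.564), with every knockout below every control. Mean log2 signal of 18 mature OSN markers was 11.49 to 11.61 in controls and 11.37 to 11.51 in knockouts, and 4 were lower and 1 higher at an unadjusted p under 0.05. Of all rows, 3.06% were lower and 3.04% higher at that threshold. Of 13 immature OSN markers 4 were lower and 0 higher, and of 8 progenitor and basal cell markers 0 were lower or higher. Below 0, whether or not they passed, lay 15 of 18 mature and 12 of 13 immature OSN markers, against 11333 of all 23410 rows. Of the sustentacular markers 0 of 6 moved, of the ciliated cell markers 3 of 9 were higher and of the skeletal muscle markers 3 of 7 were higher at that threshold, with 9 of 9 and 7 of 7 above 0, and 0 genes of any marker list passed the adjusted test. When the arrays were centred on the mature OSN markers, the median of all rows moved to 0.14, and Emx1, Lhx2, Lhx9 and Ldb1 moved with it to 0.17, 0.13, 0.32 and 0.17. Emx2 was at -0.81 on that scale (adjusted p = 0.00677), and Dlx5 at -0.13.

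The genes around Emx2 on chromosome 19 were read for comparison. Among the 24 nearest genes with a row, 12 on each side, 0 passed the adjusted test. At an unadjusted p under 0.05, 2 were lower and 3 were higher, against 3.06% and 3.04% of all rows, and the median difference was -0.02, with 9 of 24 above 0. Sfxn4, a mitochondrial carrier gene, read 8.21, 7.91, 8.24 and 8.25 in controls and 7.81, 7.59, 7.90 and 7.78 in knockouts, without overlap, a difference of -0.38 that did not pass (adjusted p = 0.419). Nanos1, a regulator of translation, was at -0.24 (adjusted p = 0.764), and Kcnk18, a potassium channel gene, at 0.18 (adjusted p = 0.789). Pnliprp1, a pancreatic lipase-related gene named after its values were seen, read 7.08, 7.14, 6.97 and 7.15 in controls and 7.33, 7.87, 7.24 and 7.22 in knockouts, without overlap and with knockout replicate 2 highest. Its difference of 0.33 did not pass (adjusted p = 0.818). Pdzd8 and Rab11fip2, the measured genes next to Emx2 on either side, were at 0.0025 and 0.05. Of the 18 neighbours listed by name, 17 had a row (Fam45a under its newer symbol Dennd10), with 2 lower and 1 higher at an unadjusted p under 0.05.

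The neighbour with the largest difference was E330013P04Rik, a long noncoding RNA gene that was chosen after its values were seen. Its RefSeq start site lies 686 kb beyond that of Emx2, on the same strand, and its upstream window, chr19:60144425-60144674 on the + strand, is shown in the same form, with 1 match to ATTA.
E330013P04Rik: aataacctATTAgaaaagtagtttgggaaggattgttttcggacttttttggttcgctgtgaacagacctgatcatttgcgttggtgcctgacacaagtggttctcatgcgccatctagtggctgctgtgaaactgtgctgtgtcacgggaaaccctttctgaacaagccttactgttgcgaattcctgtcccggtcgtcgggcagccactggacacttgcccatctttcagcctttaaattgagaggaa
It read 9.35 and 9.17 in the Emx2(fl/fl) controls, 9.88 and 9.89 in the 123Cre:Emx2(fl/+) controls, and 10.59, 10.55, 10.83 and 11.22 in the knockouts. The 3 genotypes rose in order without overlap, the reverse of Emx2 and the case for 0.402% of all rows. The knockout difference was 1.23 (SE 0.205, 95% interval 0.76 to 1.69), or 234% of control, and just missed the threshold (adjusted p = 0.0586). It passed without knockout replicate 2 (1.31, adjusted p = 0.0451) and in 6 of 21 alternatives in all, over which the adjusted p ran from 0.0111 to 0.551. Against Emx2(fl/fl) alone in the 3-genotype fit it was 1.54 (adjusted p = 0.0344), and against 123Cre:Emx2(fl/+) 0.92 (adjusted p = 0.291). The step between the control genotypes was 0.62 (95% interval 0.12 to 1.12, unadjusted p = 0.0206, adjusted p = 0.997). Among the controls that step cannot be told apart from sex, as for Emx2.

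**Figure D4:**
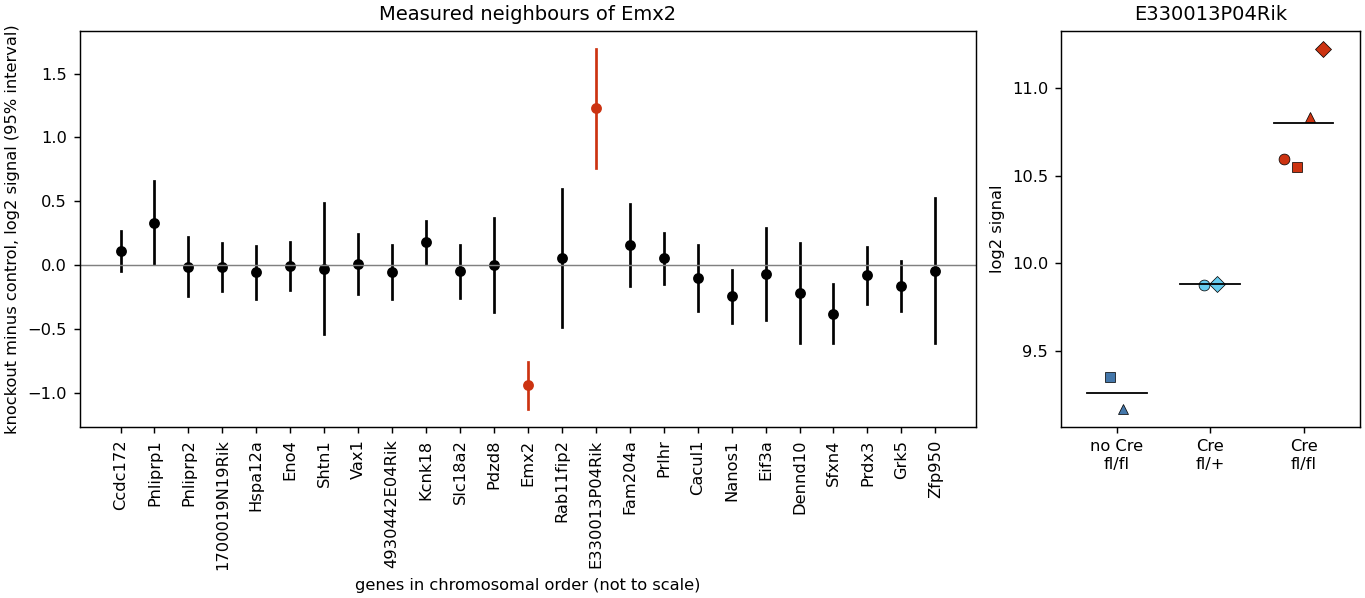
Left, knockout minus control difference in log2 signal with its 95% interval (vertical axis) for Emx2 and its 24 nearest measured genes in chromosomal order (horizontal axis, not to scale). Right, log2 signal of E330013P04Rik in each sample by genotype, with symbols for replicates 1 to 4 and lines for genotype means. Emx2 (-0.94) and E330013P04Rik (1.23) stand apart from the other neighbours, and E330013P04Rik rises from 9.17 and 9.35 without Cre to 10.55 or more in knockouts.

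Genes whose pattern over the 8 arrays was most like that of a member were taken by the root mean square distance between centred profiles, a description that rests on the same 8 samples as the differences. Nearest to Emx2 were the vomeronasal receptor genes Vmn1r85 (distance 0.162) and Vmn2r93 (0.187) and the glycosyltransferase gene B4galnt2 (0.192). Their knockout differences were -0.87, -0.92 and -0.81. Matching to Emx2 selects for such a drop, so these differences are not a separate result and no p-value is read from them. Their values ran from 5.96 to 7.75, inside the range of 5.45 to 8.06 for genes of organs that were not sampled. Nearest to Dlx5 were Gipc3 (0.0897), Tspan15 (0.0938) and Cdh3 (0.102), which were likewise highest in knockout replicate 2. Nearest to Lhx9 were Gm10457 (0.0521), Aldh1b1 (0.0559) and Muc4 (0.0586), each also highest in knockout replicate 2. Emx1, Lhx2 and Ldb1 varied too little over the arrays to be matched.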

How the data were processed

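Total RNA of olfactory mucosa from 8 mice at postnatal day 1 was hybridised to Affymetrix Mouse Gene 1.0 ST arrays. The authors deposited log2 values per transcript cluster, which combine the probe sets of all exons of a gene. Affymetrix Expression Console is named in the submitters' notes on processing. Its version and its normalization are not given here by the labels or the study. The deposited log2 values were used as they stand. The genes, lists and comparisons were chosen with earlier results of these data known.

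Groups came from the sample labels, and replicate numbers only name samples. Differences were fitted with limma 3.58.1 under R 4.3.3 (moderated statistics from lmFit and eBayes, both directions), knockout against control without covariates, with Benjamini-Hochberg adjustment over the 23410 rows with a gene symbol, and again with 3 genotypes. Per the study, the litters that gave knockouts also gave controls. The labels give no litter or shared RNA pool, so the fit holds no litter term and treats the samples as independent. The p-values reflect only how these samples spread, and the number of arrays limits the precision. No array was identical to another (lowest root mean square difference 0.2016). The fit was tested on simulated data. The methods' t-test, scalings, filters, array weights, each control genotype alone, sex, order of sample titles and leaving out each sample were tried as alternatives.

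Named with values were the 6 genes, Omp, Gap43, listed neighbours of Emx2, up to 6 genes of each list with the largest difference, and the 3 genes most like each member whose SD over the arrays was at least 0.15. Neighbours were ordered by RefSeq (GRCm38.p6), and the array's own build is not given in the labels. Motifs were counted in RefSeq upstream windows of 250 bases.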

Additional observations from a re-analysis of the deposited data

Results flagged for a closer look

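Among 120 groups of 4 samples examined for the 60 named genes, 4 held a sample whose gap to the nearest other exceeded Dixon's critical share of the group's range, and chance gives about 1 in 20 groups. Ldb1 was 12.62 in control replicate 2, where the next control was 12.41. Lmo2, a LIM-only partner of Ldb1, was 10.48 in control replicate 3, where the next control was 10.38. Lhx3 was 7.264 in knockout replicate 2, where the next knockout was 7.066. Sfxn4, a neighbour of Emx2, was 7.907 in control replicate 2, where the next control was 8.207.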

How the results depend on the processing

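Emx2 kept its direction and its side of the threshold in 21 of 21 alternatives with an adjusted p (-1.03 to -0.81, adjusted p 0.000348 to 0.0458). It was the only one of the 6 genes called in each. The exact permutation test was a further alternative, and its p of 0.0286 is not adjusted. With each sample left out in turn it lay between -0.98 and -0.89, Emx1 between 0.0067 and 0.08, Lhx9 between 0.12 and 0.28, and Dlx5 between -0.51 and -0.15. The step in Emx2 between the control genotypes lay between -0.24 and -0.10 in the same way. The signs of Emx1, Lhx2 and Ldb1 were not settled. Emx1 was -0.00080 against 123Cre:Emx2(fl/+) controls only. Lhx2 was 0.0040 under quantile normalization, 0.13 centred on mature OSN markers, 0.0186 centred on the median, 0.0279 against 123Cre:Emx2(fl/+) controls only, and -0.0264 to 0.0345 with each sample left out. Ldb1 was -0.0170 against Emx2(fl/fl) controls only, -0.011 without knockout replicate 2, and -0.011 to 0.10 with each sample left out. Of all rows 84 were called, against 28 with the methods' t-test, 27 without the dimmest 30% of rows, which removes Lhx9, 224 with array weights, 32 against 123Cre:Emx2(fl/+) controls only and 25 against Emx2(fl/fl) controls only. With each sample left out the count lay between 46 (without knockout replicate 1) and 132 (without knockout replicate 2), and control replicates 2, 3 and 4 and knockout replicate 3 each moved it by over 1.5 times, to 54, 51, 54 and 55. The causes were not tested. No paired analysis was possible because the labels tie no control to a knockout. Signal inside the range of genes of organs not sampled limits what Lhx9 can show, and also Emx1, which lies near the top of that range.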
